A study of Mus musculus with 4 samples.

Results

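Smooth muscle cells that carried at least 1 transcript of Igfbp2 were examined in the aorta of untreated mice, in the library of cells descending from the second heart field (SHF baseline). A cell barcode was kept if 500 or more genes were detected and mitochondrial genes gave no more than 10% of its UMIs (unique molecular identifiers, the counted transcripts). It was placed in the smooth muscle gate with at least 5 UMIs of Myh11, the smooth muscle myosin heavy chain, and 0 UMIs of Pdgfra, Ptprc and Pecam1, which mark fibroblasts, leukocytes and endothelial cells. Of 9412 barcodes 8579 were kept and 2090 were in the gate, and 499 of these had an Igfbp2 UMI. They are 499 of 31676 barcodes in the 3 libraries used, and they were compared with the 1591 gated cells of the same library that had 0 Igfbp2 UMIs. The cells were thus chosen by their counts of Myh11, Pdgfra, Ptprc, Pecam1 and Igfbp2, and the levels of these 5 genes describe the choice and are no finding.

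All mice were male and of the reporter strain Mef2c-mTmG, in which Cre recombination switches the colour of a membrane-bound fluorescent protein. Living single cells from digested aorta were sorted by lineage and captured with the 10x Genomics 3' v3 chemistry. The groups used were SHF baseline, SHF AngII (the same lineage after angiotensin II infusion for 3 days) and CNC AngII (sorted cells of the group labelled CNC, after the same infusion). A sample labelled CNC baseline was not used here. Each group was 1 library, and neither the mice per library nor their age is given in the sources used here. No difference below therefore has a replicate check, no test was made, and every interval is a 95% counting interval that leaves out differences between mice and preparations. Intervals of levels and ratios also treat every UMI as independent, so they leave out the spread between cells. The files held 0 rows for a reporter gene, so the sort could not be checked from expression.

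Igfbp2 encodes insulin-like growth factor binding protein 2, a secreted protein that binds the insulin-like growth factors IGF1 and IGF2 and limits or prolongs their access to the IGF1 receptor. The smooth muscle cells of the aortic media contract through actin, myosin and their regulators. They also lay down the elastic laminae, collagens and basement membrane of the wall, and they respond to TGF-beta, bone morphogenetic proteins (BMP) and angiotensin II. In the ascending aorta the outer media derives largely from the second heart field, whose progenitors also form the outflow tract and part of the heart muscle.

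In GENCODE M21, on the mouse build GRCm38 (mm10), Igfbp2 is a protein-coding gene on the plus strand at chr1:72824503-72852474. RefSeq gives it 2 promoter windows in GRCm38.p6, shown because this gene defines the cells. Each holds 250 bases before and 50 bases after an annotated start, on the plus strand, at chr1:72824230-72824529 and chr1:72825137-72825436. Capitals mark matches, on either strand, to an AP-1 motif (TGANTCA), a TEAD motif (GGAATG), the CArG box of serum response factor, or a GC-rich BMP element (GGCGCC).
Igfbp2, first start: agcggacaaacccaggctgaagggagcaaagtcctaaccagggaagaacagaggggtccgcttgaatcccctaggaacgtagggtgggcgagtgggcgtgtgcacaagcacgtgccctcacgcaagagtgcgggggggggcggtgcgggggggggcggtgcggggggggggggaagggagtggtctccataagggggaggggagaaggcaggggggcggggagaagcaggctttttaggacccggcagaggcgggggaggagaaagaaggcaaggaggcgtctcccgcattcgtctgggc
Igfbp2, second start: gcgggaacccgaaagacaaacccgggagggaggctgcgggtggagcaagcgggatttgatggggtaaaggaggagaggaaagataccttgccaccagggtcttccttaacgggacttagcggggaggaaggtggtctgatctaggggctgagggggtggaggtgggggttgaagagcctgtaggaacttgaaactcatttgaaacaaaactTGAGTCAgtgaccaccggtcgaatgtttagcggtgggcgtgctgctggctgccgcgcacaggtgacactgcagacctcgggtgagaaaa
The first window held no match. The second held 1 AP-1 match, at bases 212 to 218 counted from its upstream end. Of 32851 RefSeq promoter windows of the same length, 7.81% held an AP-1 match, 14.7% a TEAD match, 1.63% a CArG box and 11.9% the GC-rich element. A match describes the letters of a window and is not evidence of binding.

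Igfbp2-positive cells made up 23.9% of the smooth muscle gate (exact Clopper-Pearson interval 22.1 to 25.8%). Detection of 1 transcript depends on how deeply a cell was sequenced, and the positive cells had a median of 14477 UMIs against 11949 in the negative cells. In the lowest quartile of the gate by total UMIs 11.1% of the cells were positive, in the second 14.6%, in the third 26.4% and in the highest 43.4%. The level of Igfbp2 moved with depth as well as its detection. Igfbp2 stood at 32.3 counts per 1000000 UMIs (CPM) in the lowest quartile, 47.7 in the second, 155 in the third and 577 in the highest. When every cell was thinned to 5000 UMIs, 334 of 2045 cells were positive, or 16.3% (14.8 to 18.0%), with 45 shallower cells left out.

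Fibroblasts, gated by a Pdgfra UMI and 0 UMIs of Myh11, served as the cells that should lack the transcript. Of 3761 such cells 19 had an Igfbp2 UMI, or 0.505% (0.304 to 0.788%), at a median of 9501 UMIs per cell against 12427.5 in the smooth muscle gate. After thinning the fibroblast share was 0.131%. Igfbp2 stood at 263 CPM in the smooth muscle gate and 0.585 CPM in the fibroblast gate. The share in smooth muscle cells lay far above that of the fibroblast gate at either depth. This gate requires 0 UMIs of Myh11, so it leaves out fibroblasts that carried stray smooth muscle RNA. Its share may therefore be too low as a background, and the part of free RNA was not tested.

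The 499 cells were uneven in Igfbp2. Their counts had quartiles of 1, 3 and 9 UMIs, a 90th percentile of 32.2 and a maximum of 586. Of these cells 166 had 1 UMI, 137 had 2 to 4, 100 had 5 to 14 and 96 had 15 or more. The 96 highest cells, 4.59% of the gate, held 81.4% of all Igfbp2 UMIs of the gate. Median depth was 13355.5 UMIs in the cells with 1 UMI and 16589.5 in those with 15 or more.

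**Figure D1:**
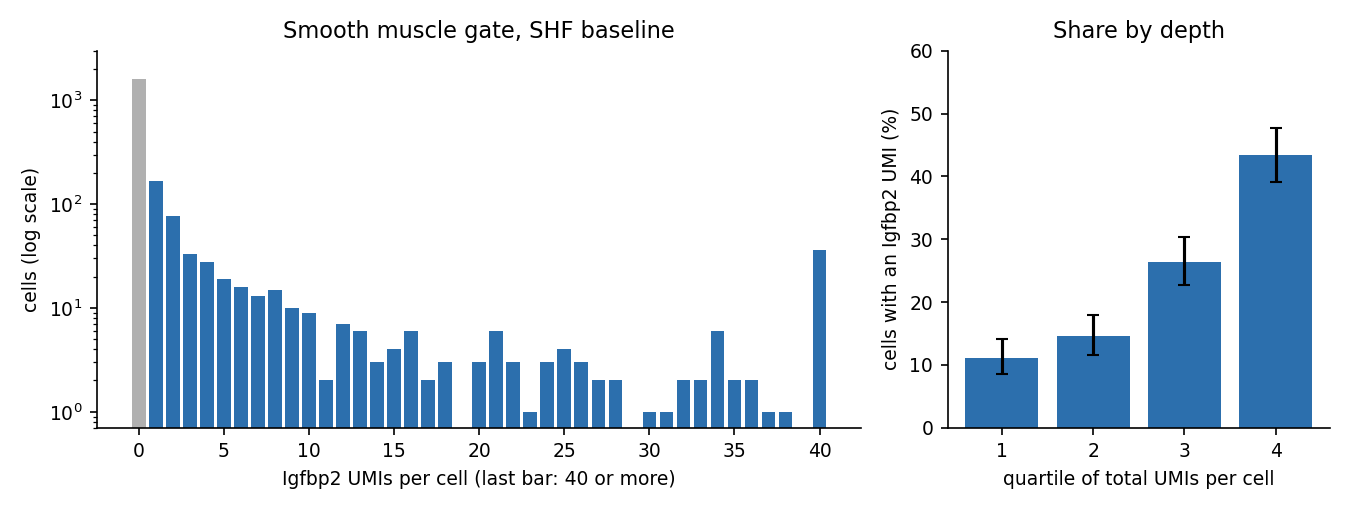
Left, number of gated smooth muscle cells of SHF baseline (log scale) at each count of Igfbp2 UMIs per cell, grey for the 1591 negative cells and blue for the 499 positive cells, with 40 or more UMIs in the last bar. Right, percent of cells with an Igfbp2 UMI in each quartile of total UMIs per cell, with exact 95% intervals, which goes from 11.1% in the lowest quartile to 43.4% in the highest.

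The label was checked on markers that the gate did not use. The 5 smooth muscle markers left without Myh11 (Acta2, Tagln, Cnn1, Lmod1 and Smtn) summed to 56489 CPM in the positive cells and 53092 CPM in the negative cells, and 0 of them were at 0. The 12 fibroblast markers summed to 1239 and 1408 CPM, mostly Gsn and Dcn, with Pdgfra at 0 by the gate. The 9 macrophage or monocyte markers left without Ptprc, which the gate set to 0, summed to 4.70 and 17.7 CPM, of which Cd74 was 2.28 and 15.9 CPM. Of 8 endothelial markers 7 had no UMI in the positive cells, Pecam1 by the gate, and a count of 0 in their 7448314 summed UMIs allows up to 0.403 CPM. The 10 cardiomyocyte markers summed to 63.4 CPM against 88.1 CPM. Mitochondrial UMIs had a median of 7.46% in the positive cells and 7.29% in the negative cells, and ribosomal protein genes 12.8% and 13.7%. A doublet caller marked 10 of the positive cells (2.0%) and 25 of the negative cells (1.57%).

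The gate's edge was fixed on Myh11. Of cells with 3 or 4 Myh11 UMIs, just outside, 4 of 32 had an Igfbp2 UMI (12.5%), and of those with 5 to 7, just inside, 7 of 56 (12.5%). The share was 24.8% in the 1939 cells with 11 or more. Median depth was 6453.5, 8193.5 and 12671 UMIs in these 3 ranges.

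Levels of other genes were compared as CPM of UMIs summed over each set, as log2((CPM + 1)/(CPM + 1)) of positive over negative cells. Because depth differed, the ratio was also taken with the negative cells weighted to the depth distribution of the positive cells (the depth-weighted ratio). A gene was called only where both ratios were past 0.5 on the same side. Of 2522 genes with a mean of at least 50 CPM, Igfbp2 left out, 12 were called higher (0.476%) and 15 lower (0.595%) in the Igfbp2-positive cells. The median absolute log2 ratio over these genes was 0.08. When cells were thinned to 5000 UMIs and regrouped on the thinned Igfbp2 count, 32 genes were past the threshold on the higher side and 28 on the lower.

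The genes named next are the 15 highest and the 15 lowest by the smaller of the 2 absolute ratios. Ptprz1, a receptor-type tyrosine phosphatase that binds pleiotrophin, stood at 402 CPM in the positive cells and 211 CPM in the negative cells (log2 ratio 0.93, 0.86 to 1.0, depth-weighted 0.85). At 5000 UMIs per cell it had a UMI in 73.8% of the positive cells and 49.0% of the negative cells. Anxa3, a calcium-dependent phospholipid-binding protein, stood at 441 and 247 CPM (0.83, 0.77 to 0.90, depth-weighted 0.74). In GENCODE M21 its exons overlap those of Gm42603 on the same strand. Fn1, fibronectin, stood at 608 and 333 CPM (0.87, 0.81 to 0.92, depth-weighted 0.64). These 3 genes also had the highest rank correlations with Igfbp2 over the 2090 single cells (Spearman's rho of per-cell CPM 0.288 for Ptprz1, 0.292 for Anxa3 and 0.295 for Fn1), followed by Htra1 at 0.214 and Col4a2 at 0.193. In sparse counts from 1 library, with depth shared by all genes of a cell, such weak values only rank the genes.

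Ltbp2, a protein of the elastic fibre microfibrils, stood at 83.1 CPM in the positive cells and 45.1 CPM in the negative cells (0.87, 0.73 to 1.03, depth-weighted 0.85). Sfrp2, a secreted modulator of Wnt signals, stood at 131 and 77.5 CPM (0.74, depth-weighted 0.70). Wisp2, now named Ccn5, a matricellular protein of the CCN family, stood at 106 and 60.5 CPM (0.80, depth-weighted 0.61). Mfap5, another microfibril protein, stood at 630 and 465 CPM (0.44, depth-weighted 0.46). Bdnf, the brain-derived neurotrophic factor, stood at 73.4 and 45.7 CPM (0.67, depth-weighted 0.71), though its ratio was -0.34 with at most 5% mitochondrial UMIs, a filter that left 17 positive cells. Atf5, a stress-responsive transcription factor, stood at 231 and 162 CPM (0.51, depth-weighted 0.50). The others of the 15 were Scube3, Pdlim1, Ergic1, Glipr1 and Ccdc42, with log2 ratios of 0.44 to 0.62.

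Thbs1, thrombospondin 1, had the largest ratio of the higher genes, with 108 CPM in the positive cells and 45.1 CPM in the negative cells (1.24, 1.12 to 1.40, depth-weighted 1.02). Its sum rested on few cells. Only 14.8% of positive cells and 12.1% of negative cells had a Thbs1 UMI, and the 5 highest positive cells held 45.1% of the UMIs of their set, up to 153 in 1 cell. Without the 5 highest cells of each set the ratio was 0.62. It was 0.48 among cells with a Tnnt2 UMI and 2.33 among cells without one.

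Among the lower genes Apoe, the apolipoprotein E of lipid transport, stood at 510 CPM in the positive cells and 943 CPM in the negative cells (-0.88, -0.94 to -0.84, depth-weighted -0.81). Itih4, a heavy chain of the inter-alpha-trypsin inhibitor family, stood at 120 and 204 CPM (-0.76, -0.87 to -0.66, depth-weighted -0.82). Fgl2, a fibrinogen-like protein, stood at 451 and 654 CPM (-0.53, depth-weighted -0.55). Socs3, a feedback inhibitor of cytokine receptors, stood at 219 and 323 CPM (-0.56 on both scales), and Adamts1, a matrix metalloprotease, at 130 and 192 CPM (-0.55, depth-weighted -0.51). Others of the 15 were Psd, Abi3bp, Emb, Nrtn and Xpr1, with log2 ratios of -0.77 to -0.50.

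Lum, the proteoglycan lumican and one of the fibroblast markers, had the lowest ratio, with 43.5 CPM in the positive cells and 112 CPM in the negative cells (-1.34, -1.53 to -1.19, depth-weighted -1.25). Like Thbs1 it was uneven, with 38.9% of the UMIs of the positive set in 5 cells. When cells with more than 2 UMIs over Pi16, Lum, Dpt and Clec3b were left out, which removes Lum by construction, its ratio was -0.28, while Apoe stood at -0.62 and Itih4 at -0.69. Dcn, the other abundant proteoglycan marker of fibroblasts, stood at 351 and 474 CPM (-0.43, depth-weighted -0.54). The fibroblast markers as a list were divided. Of 12 markers 5 were above 0 and 6 below, with a median log2 ratio of -0.04 (depth-weighted -0.09). Clec3b was on the higher side, at 11.1 and 7.09 CPM (0.59, depth-weighted 0.70), as was Pi16 (0.20, depth-weighted 0.14). Only 3.61% of positive and 3.46% of negative cells had a Clec3b UMI. Its level was uneven, at 26.5 CPM in cells with 5 to 14 Igfbp2 UMIs and 1.20 CPM with 15 or more. The interval of Pi16 held 0 (-0.06 to 0.48).

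Of 7 striated muscle genes measured, 4 were above 0 and 3 below, with a median log2 ratio of 0.00 (depth-weighted -0.07), and 2 were called lower, where 0.595% of all tested genes were. Tnnt2, the cardiac troponin T, stood at 577 CPM in the positive cells and 820 CPM in the negative cells (-0.51, -0.56 to -0.46, depth-weighted -0.56), and its ratio was -0.26 without the cells that carried fibroblast RNA. The share of cells with a Tnnt2 UMI did not follow the level: 349 of 499 positive cells (69.9%) and 68.8% of negative cells had one, and after thinning and regrouping 56.3% (50.8 to 61.7%) and 58.6% (56.2 to 60.9%). The upper quartile of Tnnt2 per cell was 613 CPM in the positive cells and 891 CPM in the negative cells, and the medians were 189 and 208 CPM. The sets differed more at the upper quartile than at the median. Tcap, the titin cap protein, stood at 52.6 and 109 CPM (-1.04, -1.21 to -0.89, depth-weighted -0.78). Des, the intermediate filament desmin, stood at 550 and 532 CPM (0.05, -0.01 to 0.10), and its counting interval held 0.

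**Figure D2:**
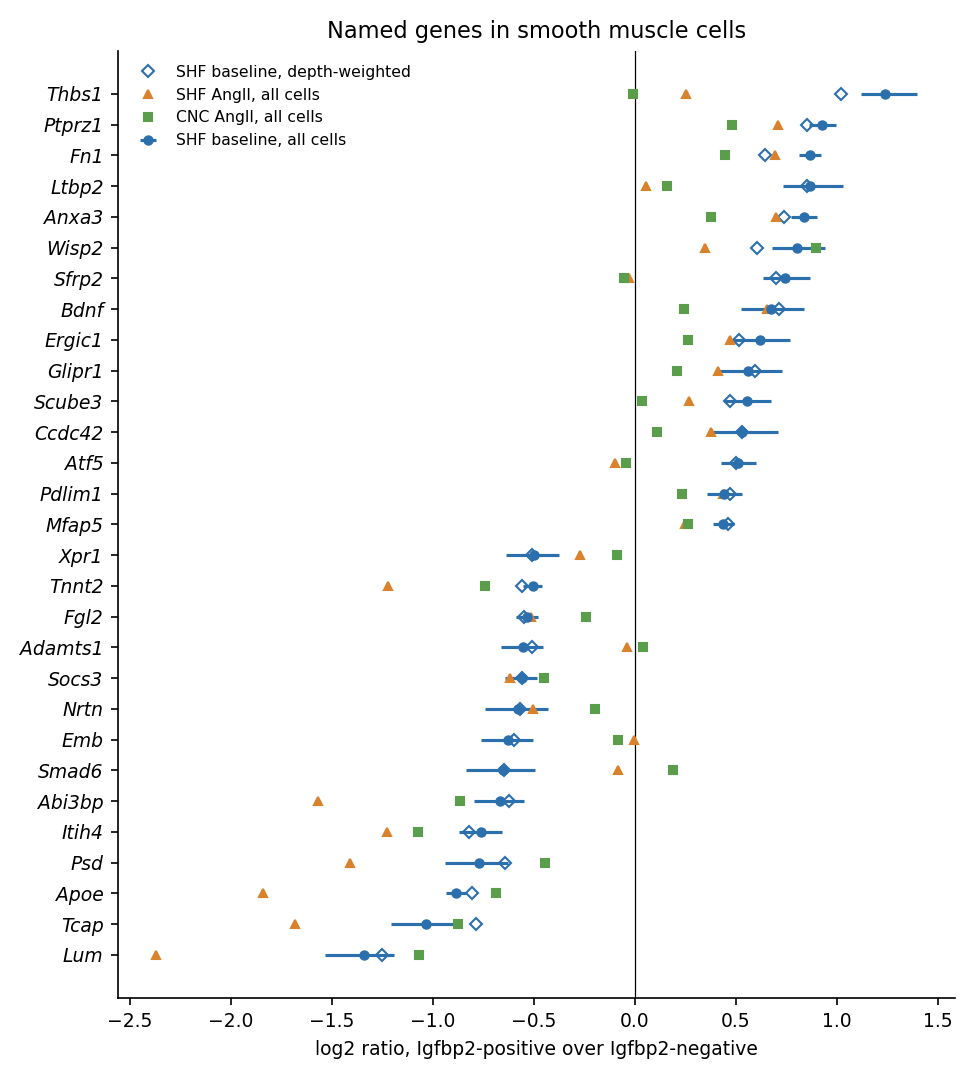
Log2 ratio of summed CPM, Igfbp2-positive over Igfbp2-negative smooth muscle cells, for 29 of the 30 named genes. Filled circles with 95% counting intervals are SHF baseline, open diamonds its depth-weighted ratio, triangles SHF AngII and squares CNC AngII. The lower genes lie mostly left of 0 in all 3 libraries. Thbs1, Ltbp2, Sfrp2, Atf5 and Scube3 of the higher genes lie near 0 in 1 or both AngII libraries. So do Emb, Adamts1, Smad6 and Xpr1 of the lower genes.

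The level of some genes was also taken in bins of the Igfbp2 count, and the genes given here were chosen after their values were seen. Ptprz1 stood at 211 CPM in cells with 0 Igfbp2 UMIs, 269 with 1, 366 with 2 to 4, 434 with 5 to 14 and 598 with 15 or more. Anxa3 stood at 247, 316, 363, 455 and 693 CPM over the same bins, and Eln, which encodes tropoelastin, at 2342, 2810, 2979, 3063 and 3474 CPM. Id3, a helix-loop-helix inhibitor and a target of BMP signalling, went the other way, with 1456, 1314, 1070, 984 and 960 CPM. Itih4 stood at 204, 153, 125, 114 and 74.8 CPM. Some neighbouring bins did not differ beyond counting error, such as Itih4 at 2 to 4 UMIs (110 to 141 CPM) and at 5 to 14 (97.5 to 132 CPM). Apoe and Tnnt2 differed mainly between 0 UMIs and the other bins: Apoe was 943 CPM at 0 UMIs and between 436 and 566 CPM in the other bins, and Tnnt2 820 CPM and between 520 and 668 CPM. Depth was also highest in the last bin, and its part in these levels was not tested.

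**Figure D3:**
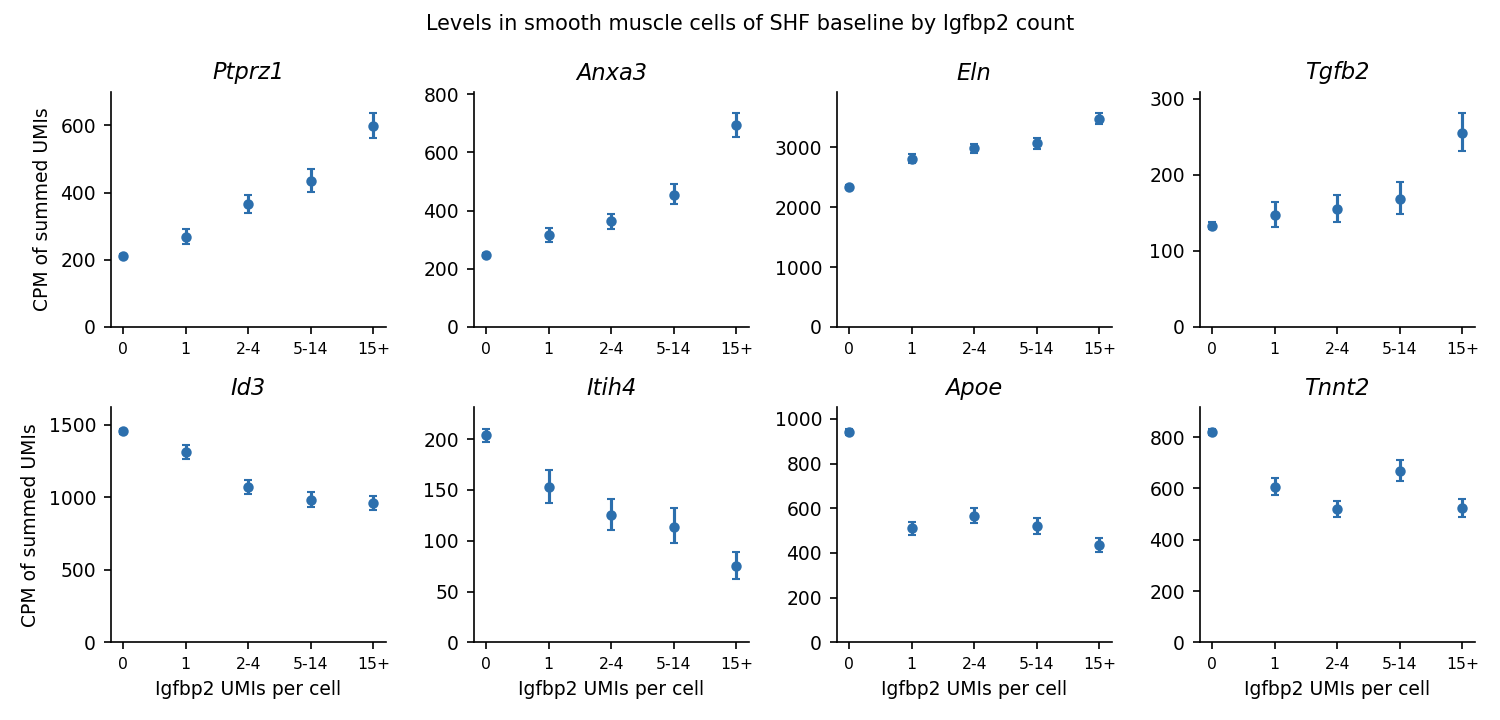
CPM of summed UMIs of 8 genes in smooth muscle cells of SHF baseline with 0, 1, 2 to 4, 5 to 14, and 15 or more Igfbp2 UMIs (vertical axes from 0, bars are exact 95% Poisson intervals). Ptprz1, Anxa3, Eln and Tgfb2 are higher in the last bin than at 0 UMIs, Id3 and Itih4 are lower, and Apoe and Tnnt2 differ mainly between 0 and the rest.

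Of 14 elastic fibre genes measured (mean CPM of at least 50), 1 was called higher, Ltbp2, and 0 lower. A ratio above 0 was found for 12, against 49.6% of all genes tested, and a counting interval above 0 for 9, against 17.4% of all genes tested. Their median log2 ratio was 0.19 (depth-weighted 0.16), where the median of all tested genes was -0.00. Eln stood at 3056 CPM in the positive cells and 2342 CPM in the negative cells (0.38, 0.36 to 0.41). Lox and Loxl1, the enzymes that cross-link elastin, had ratios of 0.28 and 0.25, Ltbp1 0.22 and the fibrillin gene Fbn1 0.19. Emilin1 was lower (-0.25), and Mgp, which restrains calcification, had an interval that held 0 (-0.01, -0.02 to 0.01).

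Collagen and basement membrane genes had a median log2 ratio of 0.21 (depth-weighted 0.15). Of 19 measured 17 were above 0, against 49.6% of all genes tested, and 15 had an interval above 0, against 17.4%. In either direction 0 of the 19 were called, where 0.476% of all genes tested were called higher and 0.595% lower. Col15a1 stood at 251 and 176 CPM (0.51, depth-weighted 0.36), the type IV collagen Col4a2 at 434 and 339 CPM (0.35) and the perlecan gene Hspg2 at 296 and 244 CPM (0.28). Col1a1 (0.23) and Col1a2 (0.15) were also higher, Col3a1 was nearly level (0.03), and Col4a6 was lower (-0.18). With at most 5% mitochondrial UMIs the list median was -0.035, from 17 positive cells. The proteoglycan and matricellular list was divided, with 9 of 19 genes above 0 and a median of -0.03. Fn1, Wisp2, Thbs1, Postn (0.32), Sparc (0.26) and Ctgf (0.21) were on its higher side, and Lum, Itih4, Adamts1, Sparcl1 (-0.48) and Ogn (-0.38) on its lower side.

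Of 28 contractile genes measured 0 were called in either direction and 13 were above 0. The median log2 ratio was -0.00 (depth-weighted -0.01), and 8 intervals lay above 0 and 8 below. Of all genes tested 17.4% had an interval above 0 and 19.2% below. Acta2, smooth muscle actin, stood at 32172 CPM in the positive cells and 28718 CPM in the negative cells (0.16 on both scales). Actg2, the gamma actin of smooth muscle, stood at 458 and 338 CPM (0.43, depth-weighted 0.41). Tagln (0.00), Cnn1 (0.03), Myl9 (0.01) and Tpm1 (-0.01) differed little, while Pdlim3 (-0.29) and Lmod1 (-0.17) were lower. Of 7 regulators around serum response factor and the KLF family, 5 were below 0. Myocd, the coactivator of contractile genes, was among them (-0.21), and Tead1, a DNA-binding partner of YAP, was the highest (81.9 and 61.8 CPM, 0.40, depth-weighted 0.36). The median of these 7 was -0.13, and 0.18 with at most 5% mitochondrial UMIs.

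TGF-beta and BMP genes lay on both sides of 0, and of 15 measured 1 was called, Smad6 on the lower side. Of all genes tested 0.595% were called lower. The ligands measured were higher: Tgfb2 stood at 178 and 133 CPM (0.41, depth-weighted 0.28), Tgfb3 at 75.7 and 54.2 CPM (0.47, depth-weighted 0.41), and Inhba, an activin subunit, at 81.1 and 65.8 CPM (0.30). The 4 Id genes, targets of BMP signalling, were lower: Id1 stood at 260 and 340 CPM (-0.39), Id2 at 347 and 491 CPM (-0.50), Id3 at 1102 and 1456 CPM (-0.40), and Id4 at 41.5 and 61.1 CPM (-0.55). The intracellular inhibitors Smad6 (47.1 and 74.6 CPM, -0.65 on both scales), Smad7 (-0.20) and Skil (-0.21) were lower, as was the receptor gene Tgfbr1 (-0.28). The BMP receptors Bmpr1a and Bmpr2 had intervals that held 0. In all, 5 of 15 genes were above 0, against 49.6% of all genes tested, with a median of -0.20 (depth-weighted -0.26). The median was -0.077 after thinning and regrouping, -0.092 from a mean CPM of 10, -0.045 among cells without a Tnnt2 UMI and -0.052 with at most 5% mitochondrial UMIs.

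Of 6 IGF axis genes measured besides Igfbp2, 5 were above 0, against 49.6% of all genes tested, and 0 were called. Htra1, a secreted protease that cleaves IGF binding proteins, stood at 545 and 395 CPM (0.46, depth-weighted 0.36). Igfbp7 stood at 8988 and 7929 CPM (0.18) and Igfbp4 at 234 and 199 CPM (0.23). Igf1r, the receptor, had an interval that held 0 (148 and 146 CPM, 0.02), and Grb14, an adaptor that inhibits insulin signalling, was lower (55.9 and 75.2 CPM, -0.42). The list median was 0.13, and -0.10 with at most 5% mitochondrial UMIs.

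Among transcription factors of the outflow tract and lineage, 7 of 8 measured were below 0, against 50.4% of all genes tested, with a median of -0.17, and 0 were called. Gata6 (-0.25), Twist1 (-0.23), Meis2 (-0.19), Mef2c (-0.18) and Foxc1 (-0.17) had intervals below 0, and Foxp1 was higher (0.24). Immediate early and heat shock genes respond quickly to stress and to tissue digestion. Of 19 measured 17 were below 0, against 50.4% of all genes tested, with a median of -0.14 (depth-weighted -0.20). Jun (-0.26), Egr1 (-0.23) and Fos (-0.20) were lower, and Hsph1 was higher (0.41). Of 7 genes of angiotensin and cyclic nucleotide signalling 0 were called in either direction, and 4 had an interval below 0, against 19.2% of all genes tested. Both subunits of the nitric oxide receptor, Gucy1a3 (208 and 274 CPM, -0.40) and Gucy1b3 (-0.21), and the phosphodiesterases Pde3a (-0.21) and Pde5a (-0.18) made up this set, while Ace, which makes angiotensin II, was higher (0.26). In GENCODE M21 exons of Gucy1a3 overlap Mir7010. Of 15 metabolic and lipid genes 11 were below 0, against 50.4% of all genes tested. Apoe, Lpl (-0.48) and the metallothionein Mt1 (-0.37) were among the 11. Both Notch targets measured, Heyl (-0.21) and Hes1 (-0.10), were lower.

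**Figure D4:**
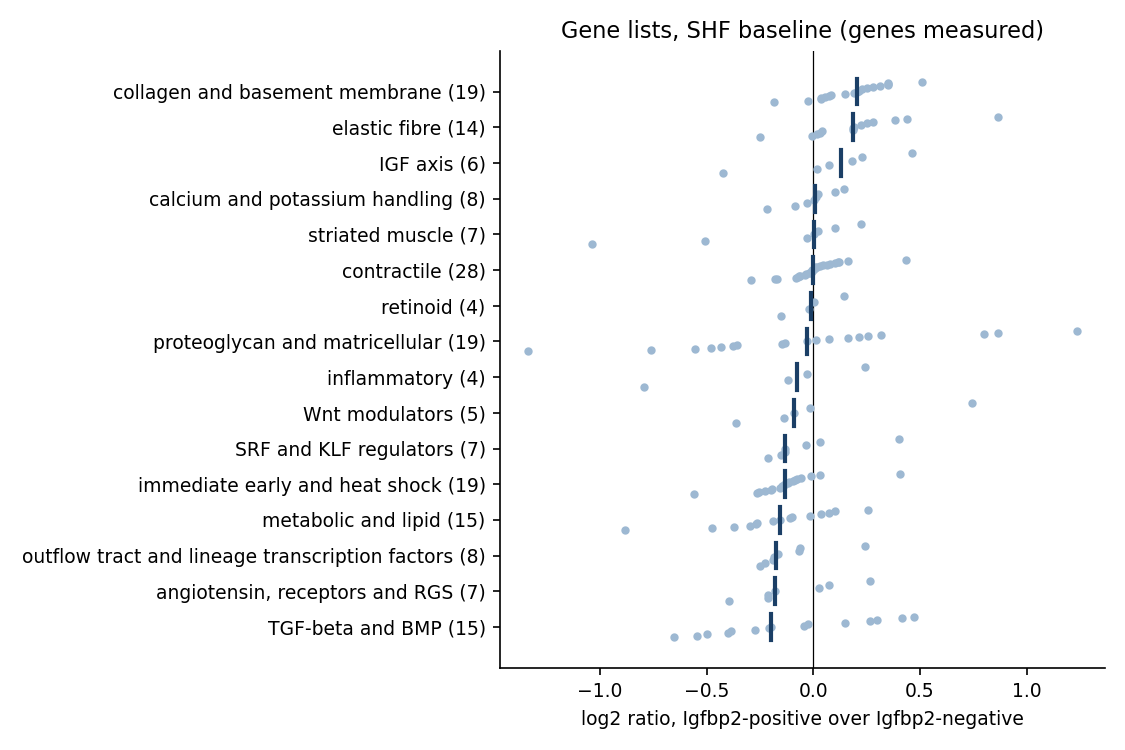
Log2 ratio of summed CPM, Igfbp2-positive over Igfbp2-negative smooth muscle cells of SHF baseline, for every measured gene (points) of each list with at least 4 measured genes, with the list median as a bar and the number of genes in brackets. Collagen and elastic fibre genes lie mostly right of 0, contractile genes cluster at 0, and TGF-beta and BMP genes spread on both sides.

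The same gate and split were applied inside each AngII library, which the choice of cells did not use. Igfbp2 was found in 3088 of 4523 gated cells of SHF AngII (68.3%, 66.9 to 69.6%) and in 5061 of 6207 of CNC AngII (81.5%, 80.5 to 82.5%), against 23.9% of SHF baseline. After thinning the shares were 59.0%, 73.0% and 16.3%. Igfbp2 stood at 1311 CPM in SHF AngII, 1461 CPM in CNC AngII and 263 CPM in SHF baseline, and 32.4%, 41.3% and 4.59% of gated cells had 15 or more UMIs. The median count of the positive cells was 13, 15 and 3 UMIs. These differences exceed counting error, but treatment, library and gene annotation cannot be told apart. The baseline file lists 18760 genes under older names and both AngII files list 32285. Between CNC AngII and SHF baseline the sorted lineage differs as well, and it cannot be told apart either. Igfbp2 was also found in 8.91% of fibroblast-gate cells of SHF AngII and 16.3% of CNC AngII, and the part of free RNA in the smooth muscle shares was not tested. Each pair of libraries shared between 25 and 29 kept barcodes, and of the 499 cells 0 had a barcode that recurred in SHF AngII and 1 in CNC AngII.

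Each ratio was taken inside 1 library, so the difference in annotation was not part of the contrast. Over 2201 genes the log2 ratios of SHF baseline and SHF AngII had a Pearson correlation of 0.673 (Spearman 0.611), and over 2172 genes those of SHF baseline and CNC AngII 0.590 (0.503). With depth-weighted ratios the Pearson values were 0.518 and 0.374. These are correlations across genes, which are not independent replicates. Positive cells were the deeper set in each library, with median depths of 14684 and 10436 UMIs in SHF AngII and 14011 and 10705 UMIs in CNC AngII, and the part of depth in the correlations was not tested. By the same threshold 8 genes were called higher in SHF AngII (0.327%) and 22 lower (0.898%), and 3 (0.122%) each way in CNC AngII.

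Of the 15 higher genes 13 were above 0 in SHF AngII, where 48.9% of all tested genes were, and 12 in CNC AngII, where 47.8% were, with medians of 0.38 and 0.24 against 0.67 in SHF baseline. Weighted for depth, 11 and 14 were above 0. Ptprz1 stood at 142 CPM in positive and 86.4 CPM in negative cells of SHF AngII (0.71, depth-weighted 0.89), and at 121 and 86.1 CPM in CNC AngII (0.48, depth-weighted 0.76). Anxa3 stood at 487 and 300 CPM in SHF AngII (0.70, depth-weighted 0.56) and at 486 and 374 CPM in CNC AngII (0.38, depth-weighted 0.27). Fn1 had ratios of 0.69 and 0.44 (depth-weighted 0.38 and 0.27). Sfrp2 was near 0 in both (-0.03 and -0.05). Thbs1 stood at 0.25 and -0.01, and weighted for depth at -0.31 and -0.48.

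Of the 15 lower genes 15 were below 0 in SHF AngII, against 51.1% of all tested genes, and 13 in CNC AngII, against 52.2%. With depth weights these counts were 13 and 11. In SHF AngII the intervals of Emb (-0.01), Adamts1 (-0.04) and Smad6 (-0.08) held 0. Adamts1 (0.04) and Smad6 (0.19) were above 0 in CNC AngII. The median of the 15 lower genes was -1.22 in SHF AngII and -0.45 in CNC AngII (depth-weighted -0.77 and -0.29), against -0.65 in SHF baseline. Apoe stood at 96.8 CPM in positive and 350 CPM in negative cells of SHF AngII (-1.84, depth-weighted -1.41) and at 96.7 and 157 CPM in CNC AngII (-0.69, depth-weighted -0.37). Itih4 had ratios of -1.23 and -1.07, and Tnnt2 of -1.22 and -0.74. Weighted for depth these ratios were smaller, at -0.77 and -0.40 for Itih4 and -0.78 and -0.42 for Tnnt2. Fibroblast markers were also lower in positive cells of SHF AngII, while in CNC AngII they were divided. Of the 12 markers 0 were above 0 in SHF AngII (median -1.01, depth-weighted -1.32) and 4 in CNC AngII (median -0.06, depth-weighted -0.12). The 12 include Pdgfra, which the gate set to 0. They summed to 818 CPM in positive and 1508 CPM in negative cells of SHF AngII, and to 713 and 778 CPM in CNC AngII. Dcn had ratios of -1.95 and -0.86. The part of fibroblast RNA in the ratios of the lower genes was not tested in these libraries.

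The gene groups kept their side to differing degrees. Eln was higher in positive cells of each AngII library, with 4804 and 3095 CPM in SHF AngII (0.63, depth-weighted 0.31) and 6080 and 4108 CPM in CNC AngII (0.57, depth-weighted 0.33). Tgfb2 (0.62 and 0.42) and Tgfb3 (0.40 and 0.35) were higher too. The Id genes were closer to level, with Id1 at -0.02 and -0.03, Id2 at -0.01 and -0.04 and Id3 at -0.18 and -0.08. The collagen median was 0.20 in SHF AngII and 0.18 in CNC AngII, but 0.01 and 0.09 with depth weights. The elastic fibre median was 0.11 and 0.16, or 0.02 and 0.08 with depth weights. Whether these ratios differ between libraries could not be tested with 1 library per group.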

How the data were processed

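Per the submitters' processing notes, fastp, STAR 2.5, HTSeq 0.6.1 and the mm10 build were named, and the gene annotation is not given in the sources used here. The deposited tables hold raw UMI counts per gene and barcode, with no normalisation. In SHF baseline 13 repeated gene names were left out. Libraries held 92474476, 147854476 and 150954701 UMIs.

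Members, gene lists and the naming rule were chosen with earlier results of these data known. UMIs were summed over cells and scaled to CPM with a pseudocount of 1. Depth weighting used 20 quantile bins of total UMIs. Ratio intervals are conditional binomial, without the pseudocount. Named genes reached a mean CPM of 50 and were detected in 10% or more of the higher set, without mitochondrial or ribosomal protein genes. List genes may also be named. Of the genes so chosen, 2 are not reported here, though the counts and medians hold them. Scrublet in scanpy 1.11.5 marked doublets, which were kept. TMM scaling used edgeR 4.0.16. Of 18760 baseline names, 18105 matched the AngII files, 511 through a RefSeq synonym. Python 3.11.15, numpy 2.4.6 and scipy 1.17.1 were used, and the ratios were tested on simulated data. The simulated counts were Poisson draws from a pooled profile. They held no further spread between cells, so they could not show how the intervals behave under such spread. Alternatives covered depth, gates, filters, doublets, scaling, pseudocount, gene minimum, cell weights and Tnnt2.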

Additional observations from a re-analysis of the deposited data

Results flagged for a closer look

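Atf5 was higher in Igfbp2-positive cells of SHF baseline (log2 ratio 0.51, 0.43 to 0.60) and lower in those of SHF AngII (-0.10, and -0.01 with depth weights). Smad6 was lower in SHF baseline (-0.65, -0.83 to -0.49) and higher in CNC AngII (0.19, and 0.22 with depth weights). Both stand out because the counting intervals lay on opposite sides of 0 in the 2 libraries; with 1 library per group the difference was not tested.

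Outside the smooth muscle comparison, the share of fibroblast-gate cells with an Igfbp2 UMI was 8.91% in SHF AngII (7.78 to 10.1%) and 16.3% in CNC AngII (13.6 to 19.2%), above the 0.505% of SHF baseline. After thinning it was 3.92%, 8.36% and 0.131%. The positive fibroblast-gate cells had a median of 1 Igfbp2 UMI in each library. Their maximum was 286 UMIs in SHF AngII, 68 in CNC AngII and 3 in SHF baseline. In the same order 16, 9 and 0 fibroblast-gate cells had 15 or more.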

How the results depend on the processing

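No paired analysis was possible because each group is 1 library and the labels carry no replicate numbers. Of 510 values of named genes 401 stayed within their counting interval, 108 moved and 1 reversed, and of 288 list medians 245 stayed, 40 moved and 3 reversed. The 401 include 30 values from a mean CPM of 10 and 30 with no minimum. These could not change, because the gene minimum does not enter the ratio of a named gene. The share of positive cells was 16.3% after thinning, 15.9% with at least 2 Igfbp2 UMIs, 9.38% with at least 5 (chosen after seeing the data) and 14.2% with at most 5% mitochondrial UMIs. Counts of higher and lower genes were 32 and 28 after thinning and regrouping, 47 and 54 from a mean CPM of 10, 247 and 389 with no minimum, and 255 and 229 with at most 5% mitochondrial UMIs, which left 17 positive of 120 cells; 26 were lower with at least 2 Igfbp2 UMIs. The contractile median was 0.028 after thinning, 0.031 among cells without Tnnt2 and 0.19 with the mitochondrial filter. The collagen median was 0.075 with no gene minimum and reversed to -0.035 with the mitochondrial filter, as did the IGF axis (-0.10), the SRF and KLF regulators (0.18) and Bdnf (-0.34). The TGF-beta and BMP median was -0.077 after thinning, -0.092 from a mean CPM of 10, -0.045 without Tnnt2 and -0.052 with the mitochondrial filter. The correlations with SHF AngII and CNC AngII were 0.518 and 0.374 with depth weights, 0.573 and 0.482 after thinning, 0.417 and 0.298 with the mitochondrial filter, 0.501 and 0.419 from a mean CPM of 10, 0.309 and 0.215 with no minimum, 0.697 and 0.621 from mean per-cell CPM, and 0.491 and 0.471 among cells without Tnnt2; with CNC AngII it was 0.50 among cells with Tnnt2. Fewer cells or lower gene minimums widen counting error by construction; otherwise the cause was not tested. Leaving out the 5 highest cells of each set, also chosen after seeing the data, moved 9 named genes. TMM scaling moved no value out of its interval. With 1 library per group, depth limits only counting error, and differences between mice have no estimate.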

Other observations

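Below the minimum of 50 CPM some genes also differed between the Igfbp2-positive and Igfbp2-negative cells of SHF baseline. The genes given here were chosen after their values were seen, and they rest on few UMIs. Akap5, an anchoring protein for protein kinase A and calcineurin, stood at 15.7 CPM in the positive cells and 4.73 CPM in the negative cells (log2 ratio 1.54, counting interval without the pseudocount 1.33 to 2.14, from 117 and 94 UMIs). Its ratio was 1.70 in SHF AngII and 0.87 in CNC AngII. Ankrd1, a stress-responsive ankyrin repeat protein of striated muscle and a target of YAP and TEAD, stood at 52.5 and 21.7 CPM (1.23), with 0.89 and 0.74 in the AngII libraries. Lrrc32, which tethers latent TGF-beta at the cell surface, stood at 25 and 13.3 CPM (0.86, depth-weighted 0.66), with 0.98 and 0.54.

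On the lower side, Frzb, a secreted Wnt antagonist, stood at 8.59 and 20.2 CPM (-1.15), with -1.14 in SHF AngII and -0.58 in CNC AngII. Corin, the protease that activates atrial natriuretic peptide, stood at 6.58 and 15 CPM (-1.08), with -1.64 and -1.0. In CNC AngII Corin was near the floor, at 0.215 and 1.43 CPM, so its ratio there depends on the pseudocount. Fst, follistatin, which binds activins, stood at 11.9 and 31.3 CPM (-1.32), with -0.64 and -0.25. The share of cells with an Fst UMI did not follow this level, at 9.42% of positive and 8.05% of negative cells of SHF baseline. Jag1, a Notch ligand, stood at 25.2 and 43.8 CPM (-0.77), with -0.35 and -0.28. Comp, a cartilage matrix protein, was higher in SHF baseline (19.6 and 12.8 CPM, 0.58) and lower in SHF AngII (-2.13), while CNC AngII stood at 0.46. In SHF baseline only 6.41% of positive and 5.09% of negative cells had a Comp UMI. From 0 to 15 or more Igfbp2 UMIs its level was uneven, at 12.8, 19.9, 5.48, 19.2 and 36.5 CPM. The difference between libraries was not tested.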
